A study of Mus musculus with 12 samples.

Results

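Genes of mitochondrial fatty acid oxidation and of its control by PPAR and ERR nuclear receptors were measured in adult mouse cardiac myocytes cultured with or without recombinant CTGF, the connective tissue growth factor that is also known as CCN2 and is secreted into the matrix. The set holds 35 genes, taken by name from a list of enzymes, carriers and regulators. Of 45281 array probes 66 were assigned to these genes, 52 of them passed the detection filter, and the brightest stood for its gene. Symbols matched for 33 genes, and 30 genes passed the detection filter, of 8905 genes tested on the whole array. The cells came from hearts of C57BL/6 mice aged 12 to 16 weeks, were released with collagenase and kept on laminin in a medium with 10 mmol/L BDM, a myosin inhibitor that stops contraction. All groups shared strain, medium and plating. The 6 CTGF cultures received 200 nmol/L recombinant CTGF for 48 h, and the 6 control cultures received none for the same time. RNA was hybridised to single-colour Illumina bead arrays, 12 in all. Whether each culture came from its own heart is not in the labels, so the p-values reflect only how these 12 samples varied, and part of that variation may be technical. In such a bulk sample, fewer cells of a type and less RNA per cell cannot be told apart.

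The adult heart draws most of its energy from fatty acids. Acyl-CoA synthetases activate them, the carnitine shuttle moves them into mitochondria, and acyl-CoA dehydrogenases, hydratases, hydroxyacyl dehydrogenases and thiolases shorten the chain in repeated rounds whose electrons pass through the electron transfer flavoprotein to the respiratory chain. PPAR receptors with their RXR partner, ERR receptors and the PGC-1 coactivators drive transcription of many of these genes, while pyruvate dehydrogenase kinases hold back glucose oxidation.

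Promoter sequences of genes described below are shown as background, since receptors of this pathway bind short DNA elements. A link between these elements and the direction of change was not tested. Directions named here are those under quantile normalization, and the calls of Plin5, Acadm and Hadhb were lost with median scaling. The sequences are windows from 250 bases before to 50 bases after the annotated start in RefSeq (GRCm38.p6), given 5′ to 3′ on the gene's strand. Plin5, which fell, is shown by the more upstream of its 2 windows, at chr17:56117499-56117798 on the minus strand, and Acadm, which rose, is at chr3:153944594-153944893 on the minus strand. Acot1, which fell, is at chr12:84009252-84009551 on the plus strand, and Ppard, which rose, at chr17:28232504-28232803 on the plus strand. Hadhb, which fell, is at chr5:30155003-30155302 on the plus strand. Capitals in Plin5 and Acadm mark the nuclear receptor half-site AGGTCA on either strand, and Acot1 and Ppard held none. Capitals in Hadhb mark the 228 bases that lie within the promoter window of Hadha as well, which runs from the opposite strand with a start 273 bases away.
Plin5: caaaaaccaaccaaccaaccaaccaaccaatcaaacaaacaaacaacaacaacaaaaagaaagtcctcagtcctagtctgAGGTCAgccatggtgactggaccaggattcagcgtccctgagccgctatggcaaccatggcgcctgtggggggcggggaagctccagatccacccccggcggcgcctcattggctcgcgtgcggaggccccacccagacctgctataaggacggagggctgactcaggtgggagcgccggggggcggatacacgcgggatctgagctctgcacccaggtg
Acadm: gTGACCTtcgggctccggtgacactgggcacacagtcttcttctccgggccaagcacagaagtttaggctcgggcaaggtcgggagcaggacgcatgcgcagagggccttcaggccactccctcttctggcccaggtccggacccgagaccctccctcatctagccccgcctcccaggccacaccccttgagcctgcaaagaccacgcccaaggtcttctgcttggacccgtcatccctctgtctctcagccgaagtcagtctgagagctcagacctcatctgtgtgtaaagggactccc
Acot1: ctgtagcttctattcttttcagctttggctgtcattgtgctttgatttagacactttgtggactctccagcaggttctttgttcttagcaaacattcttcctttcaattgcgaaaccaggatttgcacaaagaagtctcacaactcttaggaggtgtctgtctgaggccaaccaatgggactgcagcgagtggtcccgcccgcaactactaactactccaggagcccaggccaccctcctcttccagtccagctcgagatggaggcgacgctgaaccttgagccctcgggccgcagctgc
Ppard: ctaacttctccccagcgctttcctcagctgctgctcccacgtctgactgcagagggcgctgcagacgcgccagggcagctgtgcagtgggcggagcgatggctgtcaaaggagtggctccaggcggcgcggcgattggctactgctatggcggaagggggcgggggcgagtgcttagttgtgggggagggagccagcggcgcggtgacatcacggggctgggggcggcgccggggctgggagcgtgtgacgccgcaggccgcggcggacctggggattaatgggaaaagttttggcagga
Hadhb: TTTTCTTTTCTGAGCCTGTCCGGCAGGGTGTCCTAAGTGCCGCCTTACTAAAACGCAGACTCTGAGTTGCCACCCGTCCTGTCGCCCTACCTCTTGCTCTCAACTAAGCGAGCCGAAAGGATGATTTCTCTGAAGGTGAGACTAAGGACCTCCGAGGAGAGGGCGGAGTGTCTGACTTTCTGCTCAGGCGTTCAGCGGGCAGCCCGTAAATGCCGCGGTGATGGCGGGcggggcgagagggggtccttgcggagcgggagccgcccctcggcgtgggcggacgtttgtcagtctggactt

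The half-site AGGTCA was searched on both strands in all windows of this length and was found in 16.3% of 32851 windows. Of the 29 listed genes with a window, 5 held it (Acadm, Acadvl, Echs1, Plin5 and Ucp3), in 6 of 35 windows. The called genes Cpt1b, Acot13, Decr1 and Ppargc1b had no window and were not searched. The direct repeat AGGTCANAGGTCA, bound by PPAR with RXR, was in 0.0396% of all windows and in no window of the listed genes. The ERR element TNAAGGTCA, which contains the half-site, was in 1.28% of all windows and in no window of the listed genes. Only exact letters were searched. At these shares no match in 35 windows was the likely outcome for either element, so the absence tells nothing of this set. These matches are descriptions of letters in these windows and say nothing of binding.

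The arrays detected the myocyte genes strongly. All 11 measured cardiac myocyte markers were detected on every array, and their summed normalized intensity was 246530 to 275500 with CTGF and 272240 to 290720 in controls. Of these markers 4 were lower and none higher, with the troponin gene Tnni3 at a log2 fold change of -0.89 ± 0.10 (SE) and the calcium pump inhibitor gene Pln at -0.75 ± 0.13. All 14 measured endothelial markers were lower, and their sum was 2322 to 2702 with CTGF against 8056 to 9727 in controls, so the groups did not overlap. Among the other lists, 6 of 7 smooth muscle and pericyte markers, 4 of 8 fibroblast markers and 2 of 5 macrophage and myeloid markers were lower. In the same order 1, 1 and 0 markers were higher, where 21.6% of all genes were lower and 25.0% higher. With median scaling the fibroblast genes Col1a2 (0.44) and Lum (0.57) were higher too, and the 4 lower ones stayed lower. Pdgfrb (-0.50), Rgs5 (-0.27) and Abcc9 (-0.03) did not pass the test there, while Acta2, Myh11 and Notch3 stayed lower. The fibroblast sums were 5447 to 6328 with CTGF and 4335 to 7586 in controls, and the smooth muscle sums 2839 to 3464 against 4367 to 5077. The macrophage sums were 180.2 to 251.6 against 510.0 to 702.4. The 2 lower macrophage markers were the lysozyme genes Lyz1 (log2 fold change -2.41) and Lyz2 (-1.07). Csf1r (0.14), Cd14 (0.18) and Mrc1 (0.02) did not pass the test. Among adipocyte markers, Adipoq, Plin1, Cidec, Fabp4, Retn and Ucp1 were not above background on any array, and Lep did not pass the test (log2 fold change 0.03 ± 0.14). The part of other cell types in the results below was not tested. Per array 14747 to 16390 probes were detected, with overlapping ranges in the groups. After background correction alone, without normalization between arrays, the 8905 genes had a median change of 0.35 on the log2 scale, towards higher intensity with CTGF.

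The comparison of CTGF with control cultures asked which of these genes responded to the growth factor. In all 9 enzyme and fuel-choice genes were lower with CTGF, where 21.6% of all genes were lower. The largest falls were in the thioesterase genes Acot1 and Acot13, the lipid droplet gene Plin5 and the reductase gene Decr1. The 3 higher genes were the receptor gene Ppard, the coactivator gene Ppargc1b and, by a small amount, the dehydrogenase gene Acadm, where 25.0% of all genes were higher. With median scaling between arrays 2 genes of the set were lower and 7 higher, where 8.43% of all genes were lower and 47.4% higher. No measured gene of the set changed by as much as 2-fold. The remaining 18 measured genes did not pass the test, among them the carnitine shuttle genes Cpt2, Slc25a20 and Crat, the kinase gene Pdk4 and the receptor genes Esrra and Esrrg.

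Changes are log2 fold changes of CTGF over control in background-corrected, quantile-normalized intensities, tested with limma at a Benjamini-Hochberg adjusted p under 0.05 over all 8905 genes. Of the 30 genes 12 were called, where 46.6% of all genes tested were called. Of the 30, 9 were lower, where 21.6% of all genes were lower, and 3 were higher, where 25.0% of all genes were higher. With median scaling 2 of the 30 were lower and 7 higher, where 8.43% of all genes were lower and 47.4% higher. Without normalization between arrays 2 were lower and 9 higher, where 7.87% of all genes were lower and 49.5% higher. The median log2 fold change of the 30 was -0.08, and that of all genes 0.03. CTGF and control arrays did not overlap for 4 lower genes of the set (Acot1, Acot13, Decr1 and Eci1), where 12.1% of all genes lay wholly below, and for 2 higher genes (Acadm and Ppard), where 13.0% lay wholly above. How many genes rose and how many fell turned on the scaling between arrays. With median scaling the median of all genes was 0.32 and that of the set 0.17, and without normalization between arrays they were 0.35 and 0.19. Relative to the median of all genes the set's median was -0.11 under quantile normalization, -0.15 under both of these and -0.08 under cyclic loess. The set was brighter than the genes it was compared with, at a median log2 level of 10.2 against 7.19 for all genes. The part of signal level in this gap was not tested. Acot1, Acot13, Ppard and Ppargc1b kept direction and call under all 27 other settings, although the sizes of their changes moved.

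**Figure D1:**
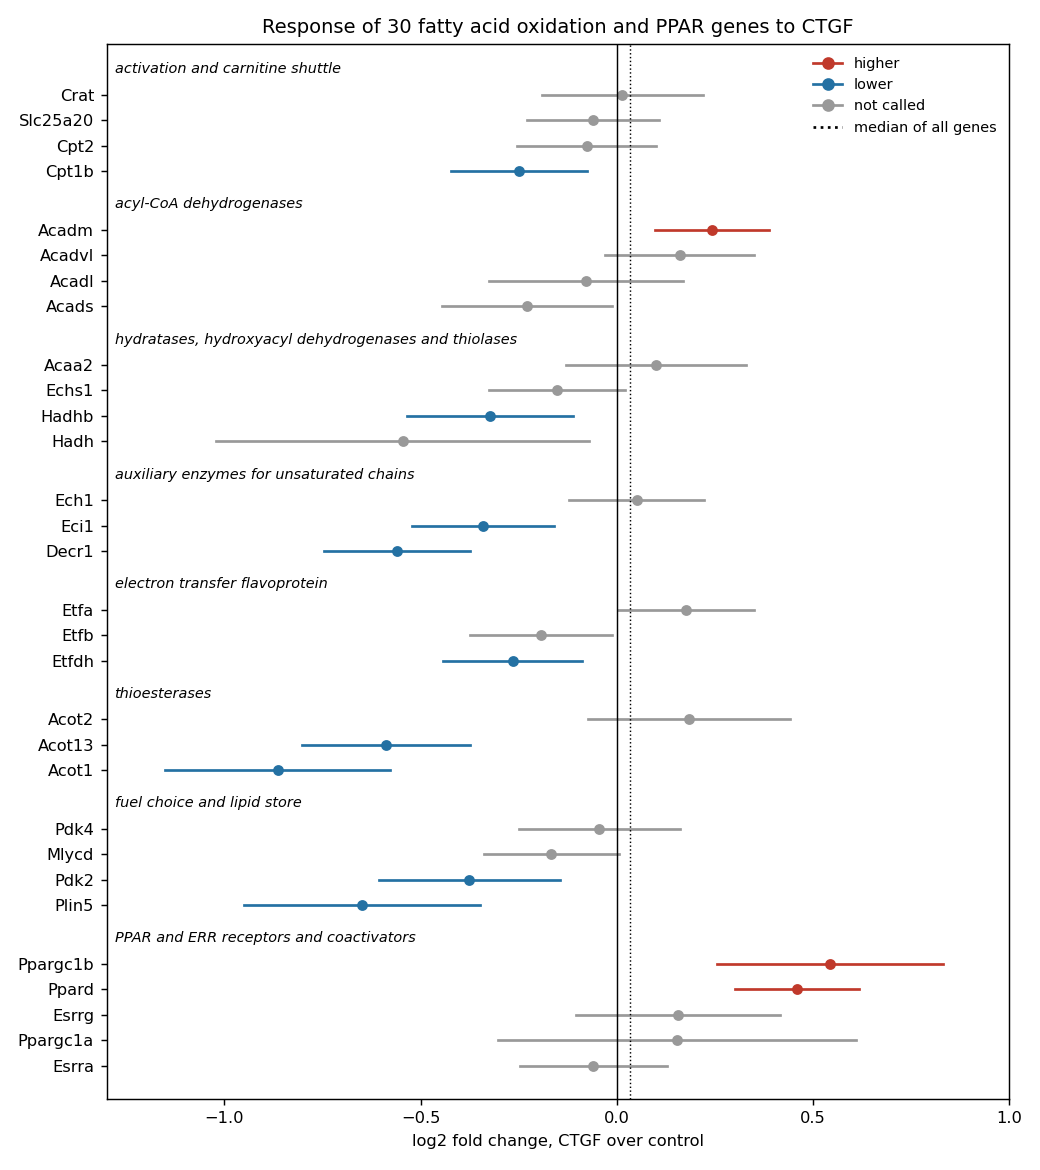
Log2 fold change of CTGF over control (x axis) with its 95% confidence interval for each of the 30 measured genes, grouped by role, with lower calls in blue, higher calls in red and genes not called in grey. The dotted line is the median of all genes (0.03), and Acot1 at -0.86 and Ppargc1b at 0.54 are the extremes.

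Entry of fatty acids into mitochondria runs through Cpt1b, the muscle form of carnitine palmitoyltransferase I and the step that malonyl-CoA inhibits. On the log2 scale, Cpt1b levels were 11.18, 11.33 and 11.61 with CTGF (lowest, median and highest of 6 arrays) and 11.58, 11.60 and 11.75 in controls. The highest CTGF array reached into the control range, while the other CTGF arrays lay below it. Cpt1b fell by 0.25 ± 0.08 (SE, limma adjusted p = 0.0206), and its second probe gave -0.45 ± 0.10. The first value depended on the scaling, and turned to 0.03 with median scaling and 0.06 without normalization between arrays. The carrier gene Slc25a20 (-0.06), the inner membrane transferase gene Cpt2 (-0.08) and the carnitine acetyltransferase gene Crat (0.01) did not pass the test. The 95% intervals of their brightest probes stayed between -0.25 and 0.22. Dimmer Cpt2 probes gave -0.45 (limma adjusted p = 0.00115 over all probes) and 0.01. Dimmer probes gave 0.44 for Crat (adjusted p = 0.0517) and -0.28 for Slc25a20 (adjusted p = 0.197). Crat was called higher with median scaling (0.39, limma adjusted p = 0.0341) and without normalization between arrays (0.41, adjusted p = 0.0265). No probe carried the symbol of the synthetase gene Acsl1 in the annotation used here.

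The acyl-CoA dehydrogenases open each round and differ in the chain length they take. Acadm, the medium-chain enzyme, had log2 levels of 14.11, 14.23 and 14.31 with CTGF and 13.93, 13.97 and 14.09 in controls. Every CTGF array lay above every control array, although by little, while the deposited intensities overlapped (15674 to 21896 with CTGF and 14630 to 18119 in controls). Acadm rose by 0.24 ± 0.07 (SE, limma adjusted p = 0.00887), a 1.18-fold change. Its call was lost under cyclic loess (0.16, adjusted p = 0.0551), median scaling (0.22, adjusted p = 0.137) and without normalization between arrays (0.25, adjusted p = 0.109). The very-long-chain gene Acadvl (0.16), the long-chain gene Acadl (-0.08) and the short-chain gene Acads (-0.23) did not pass the test. Acads had a 95% interval of -0.45 to -0.01 and an adjusted p of 0.0784, and its second probe gave 0.07 ± 0.11.

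The next steps of the cycle add water, oxidise again and split off acetyl-CoA. Long chains meet all 3 activities in the trifunctional protein, whose beta subunit, with the thiolase, is encoded by Hadhb. Hadhb log2 levels were 13.16, 13.43 and 13.81 with CTGF and 13.61, 13.78 and 13.89 in controls, and a single CTGF array, replicate 6, lay in the control range. Hadhb fell by 0.32 ± 0.10 (SE, limma adjusted p = 0.0144). The call was lost with median scaling (-0.27, adjusted p = 0.113) and without normalization between arrays (-0.25, adjusted p = 0.155). The probe of Hadha, the alpha subunit gene that shares the promoter shown above, was not above background on any of the 12 arrays, so the 2 subunits could not be compared. The short-chain hydratase gene Echs1 (-0.15) and the thiolase gene Acaa2 (0.10) did not pass the test, and Acaa2 was called higher with median scaling (0.39) and without normalization between arrays (0.41). Hadh, the short-chain hydroxyacyl dehydrogenase gene, had the widest interval of the set. Its log2 levels were 5.03, 5.49 and 6.14 with CTGF and 5.62, 6.08 and 6.87 in controls, and it missed the threshold (-0.55 ± 0.22, adjusted p = 0.0568).

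Unsaturated fatty acids need auxiliary enzymes that move or reduce double bonds. Decr1, the 2,4-dienoyl-CoA reductase gene, had log2 levels of 9.25, 9.55 and 9.76 with CTGF and 9.97, 10.11 and 10.21 in controls. The groups did not overlap. Decr1 fell by 0.56 ± 0.09 (SE, limma adjusted p = 9.62e-05), to 0.678 of the control level. Eci1, an enoyl-CoA isomerase gene, had levels of 11.76, 11.99 and 12.13 with CTGF and 12.15, 12.31 and 12.48 in controls, again without overlap. Eci1 fell by 0.34 ± 0.08 (adjusted p = 0.00385). The deposited intensities of both genes overlapped between groups. Both calls were lost with median scaling, at -0.17 for Decr1 and -0.14 for Eci1, and without normalization between arrays, at -0.15 and -0.11. Ech1, the dienoyl-CoA isomerase gene, did not pass the test at 0.05 (95% interval -0.12 to 0.22).

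Electrons leave the cycle through the electron transfer flavoprotein, made of the subunits encoded by Etfa and Etfb, and its membrane dehydrogenase, encoded by Etfdh. Etfdh log2 levels were 10.55, 10.74 and 10.90 with CTGF and 10.88, 10.997 and 11.12 in controls. The ranges met at the edge, with 2 CTGF arrays just above the lowest control. Etfdh fell by 0.27 ± 0.08 (SE, limma adjusted p = 0.0161), and turned to 0.09 with median scaling and 0.11 without normalization between arrays. Etfa (0.18) and Etfb (-0.19) did not pass the test.

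Thioesterases hydrolyse acyl-CoA back to free fatty acid, and this role held the widest differences. Acot1, a cytosolic enzyme whose gene is known as a PPAR target, had log2 levels of 6.86, 7.30 and 7.82 with CTGF and 7.96, 8.15 and 8.52 in controls. No CTGF array reached the lowest control. Acot1 fell by 0.86 ± 0.13 (SE, limma adjusted p = 9.6e-05), to 0.55 of the control level, which exceeds the absolute change of 92.2% of all genes tested. In the deposited intensities, before any scaling, the ranges were 150.9 to 341.0 with CTGF and 258.2 to 349.6 in controls, so the groups overlapped there. The fall was -0.45 with median scaling, -0.43 without normalization between arrays and -0.41 for the mean of its probes. A dimmer Acot1 probe gave 0.05 ± 0.18. Acot13, a mitochondria-associated thioesterase, had levels of 12.32, 12.55 and 12.84 with CTGF and 12.86, 13.16 and 13.29 in controls. These groups lay next to each other without overlap, and Acot13 fell by 0.59 ± 0.10 (adjusted p = 0.000212). The deposited intensities of Acot13 overlapped, at 5426 to 8855 with CTGF and 5846 to 11071 in controls. Acot2, the mitochondrial paralog of Acot1, did not pass the test (0.18 ± 0.12), and was called higher with median scaling (0.42) and without normalization between arrays (0.45). The Acot1 and Acot2 sequences are close, and a probe of either may bind both.

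**Figure D2:**
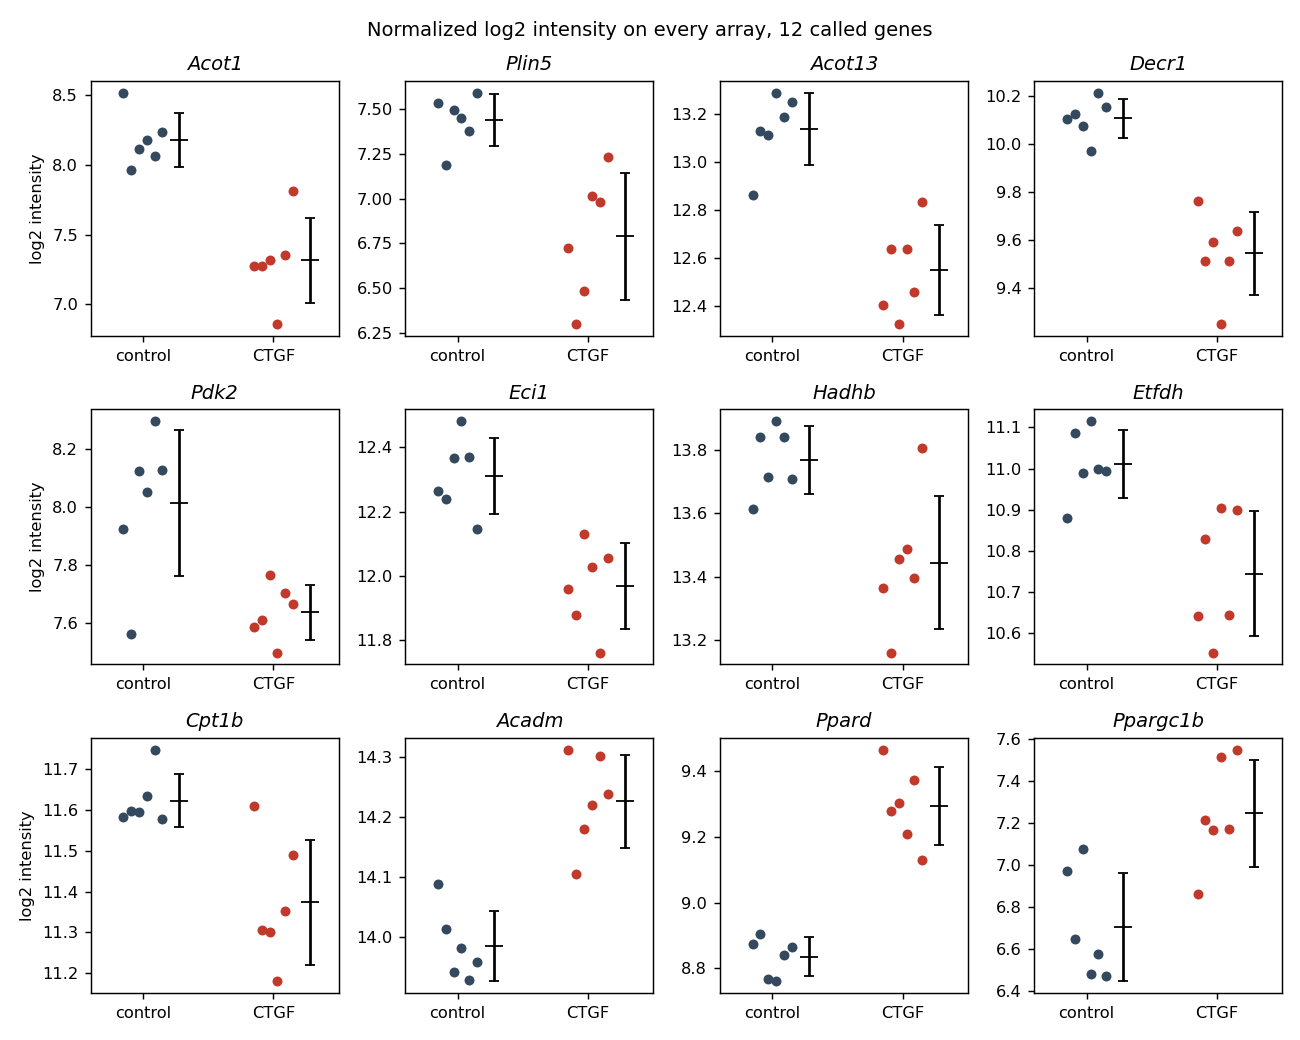
Normalized log2 intensity (y axis) on each of the 6 control and 6 CTGF arrays for the 12 called genes, ordered from the largest fall to the largest rise, with the mean and SD of each group beside the points. Each panel has its own scale, and the groups do not overlap for Acot1, Acot13, Decr1, Eci1, Acadm and Ppard.

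Fuel choice and storage are represented by the pyruvate dehydrogenase kinases, which switch off glucose oxidation, by malonyl-CoA decarboxylase (Mlycd), which removes the inhibitor of carnitine palmitoyltransferase I, and by Plin5, which coats lipid droplets next to mitochondria. Plin5 log2 levels were 6.30, 6.85 and 7.23 with CTGF and 7.19, 7.47 and 7.59 in controls. A single CTGF array lay above the lowest control, and Plin5 varied more between CTGF arrays (SD 0.35, n = 6) than between controls (SD 0.14, n = 6). Plin5 fell by 0.65 ± 0.14 (SE, limma adjusted p = 0.0015), with -0.25 and no call without normalization between arrays and -0.28 with median scaling. A dimmer Plin5 probe gave -0.04. Pdk2 levels were 7.50, 7.64 and 7.77 with CTGF and 7.56, 8.09 and 8.30 in controls, where control replicate 2 lay among the CTGF arrays. Pdk2 fell by 0.38 ± 0.11 (adjusted p = 0.01), and turned to 0.02 with median scaling and 0.05 without normalization between arrays. Pdk4, the kinase gene most used as a readout of PPAR activity, had levels of 9.09, 9.42 and 9.51 with CTGF and 9.13, 9.42 and 9.54 in controls. The ranges nearly coincided, and Pdk4 did not pass the test (-0.04, 95% interval -0.25 to 0.16). It turned to 0.35 with median scaling (limma adjusted p = 0.0525) and to 0.38 without normalization between arrays, where it was called higher (adjusted p = 0.041). Mlycd did not pass it either, at -0.17 ± 0.08 (adjusted p = 0.103), but was called lower under cyclic loess (-0.20, adjusted p = 0.0458). Both Ucp3 probes were at background on all arrays but 1, a CTGF array, and no probe carried the symbol Ucp2.

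Among the regulators, Ppard encodes the PPAR delta receptor, which in muscle and heart activates genes of fatty acid use. Ppard log2 levels were 9.13, 9.29 and 9.47 with CTGF and 8.76, 8.85 and 8.90 in controls. Every CTGF array lay above every control, also in the deposited intensities, which were 563.6 to 934.8 with CTGF and 376.6 to 515.1 in controls. Ppard rose by 0.46 ± 0.07 (SE, limma adjusted p = 0.000138), a 1.37-fold change, with 0.87 under median scaling and 0.89 without normalization between arrays. A second Ppard probe was at background on all arrays but 1, a control array, and was not tested. Ppargc1b, which encodes the coactivator PGC-1 beta, had levels of 6.86, 7.19 and 7.55 with CTGF and 6.47, 6.61 and 7.08 in controls. The ranges overlapped through 1 CTGF array and 2 controls, and Ppargc1b rose by 0.54 ± 0.14 (adjusted p = 0.00412), a 1.46-fold change, with 0.91 and 0.93 under the same alternatives. Its deposited intensities did not overlap, at 195.4 to 292.4 with CTGF and 135.3 to 171.7 in controls.

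The other regulators were not called under quantile normalization. Ppargc1a, which encodes PGC-1 alpha, had log2 levels of 6.18, 6.75 and 7.18 with CTGF and 5.58, 6.79 and 6.94 in controls, and its medians were nearly level. Its change of 0.15 ± 0.21 turned to -0.05 without control replicate 6, the array with the lowest value. It was called higher with median scaling (0.50, limma adjusted p = 0.0295) and without normalization between arrays (0.53, adjusted p = 0.021). Esrra had levels of 9.55, 9.66 and 9.81 with CTGF and 9.54, 9.70 and 9.95 in controls (-0.06 ± 0.09). Esrrg had 5.68, 5.87 and 6.10 with CTGF and 5.39, 5.65 and 6.04 in controls (0.16 ± 0.12). Both ERR genes had overlapping ranges. Esrrg was called higher with median scaling (0.41, adjusted p = 0.0161) and without normalization between arrays (0.44, adjusted p = 0.0126), and Esrra was at 0.32 and 0.35 there without a call. The single Ppara probe was not above background on any array, so the receptor best known for this pathway in the heart was not measured.

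Subunits, paralogs and neighbouring enzymes were compared by the log2 difference between them on each array, with an exact two-sided permutation test over the 12 arrays and Benjamini-Hochberg adjustment over the 7 pairs with both genes measured. Acot1 fell relative to Acot2, a difference of -1.05 ± 0.18 (SE) on the log2 scale (exact p = 0.00216, the smallest that relabelling the 12 arrays can give, adjusted p = 0.0101), and the groups did not overlap. With the mean of each gene's probes this difference was -0.56 (exact permutation adjusted p = 0.0152). Acadm rose relative to Acads, by 0.47 ± 0.12 (exact p = 0.00433, adjusted p = 0.0101). The difference was 0.07 (adjusted p = 0.643) with median scaling and 0.32 (adjusted p = 0.0455) for the mean of each gene's probes. Etfa rose relative to Etfb, by 0.37 ± 0.10 (exact p = 0.00433, adjusted p = 0.0101), with 0.29 (adjusted p = 0.0556) with median scaling and 0.22 (adjusted p = 0.114) for the mean of each gene's probes. Pdk4 rose relative to Pdk2, by 0.33 ± 0.11 (exact p = 0.0216, adjusted p = 0.0379), and this call was lost in 12 of 20 other settings. Ppargc1a against Ppargc1b (-0.39 ± 0.22, exact p = 0.106, adjusted p = 0.148), Cpt1b against Cpt2 (-0.17 ± 0.12, exact p = 0.167, adjusted p = 0.194) and Esrra against Esrrg (-0.22 ± 0.17, exact p = 0.225, adjusted p = 0.225) did not pass the test. Without control replicate 6, Ppargc1a against Ppargc1b passed, at -0.55 (exact permutation adjusted p = 0.0265).

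Several genes of the set had more than 1 detected probe, and their probes differed in response. Of 52 tested probes, 30 were the brightest of their gene and 22 were further probes of 17 genes. Among 13 genes whose brightest probe was not called, another probe was called lower for 6 genes (46.2%) and higher for none. Over all genes with several detected probes these shares were 12.3% lower and 17.6% higher, of 1623 genes. These 6 genes were Etfa, Acadvl, Acaa2, Cpt2, Acadl and Etfb. Acaa2 gave 0.10 at its brightest probe and -0.04, -0.03 and -0.59 at the others, the last with an adjusted p of 0.00103 over all probes in limma. Acadvl gave 0.16 and -0.43 (adjusted p = 0.0101). Etfa gave 0.18, -0.24 and -0.28, and Cpt2 gave -0.08, -0.45 and 0.01. Etfb gave -0.19 and -0.48, and Acadl -0.08, -0.42 and -0.35. Of the 22 further probes 15 lay below the brightest of their gene (68.2%, against 48.6% over all genes). Others lay above it, such as those of Crat (0.44 against 0.01, adjusted p = 0.0517) and Acads (0.07 against -0.23). Single probes were tested under quantile normalization only. With the mean of a gene's probes in place of the brightest, 12 genes of the set were lower and 3 higher. In that setting 21.9% of all genes were lower and 25.8% higher. Acadvl, Acaa2 and Etfa turned negative there, at -0.14, -0.14 and -0.11.

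**Figure D3:**
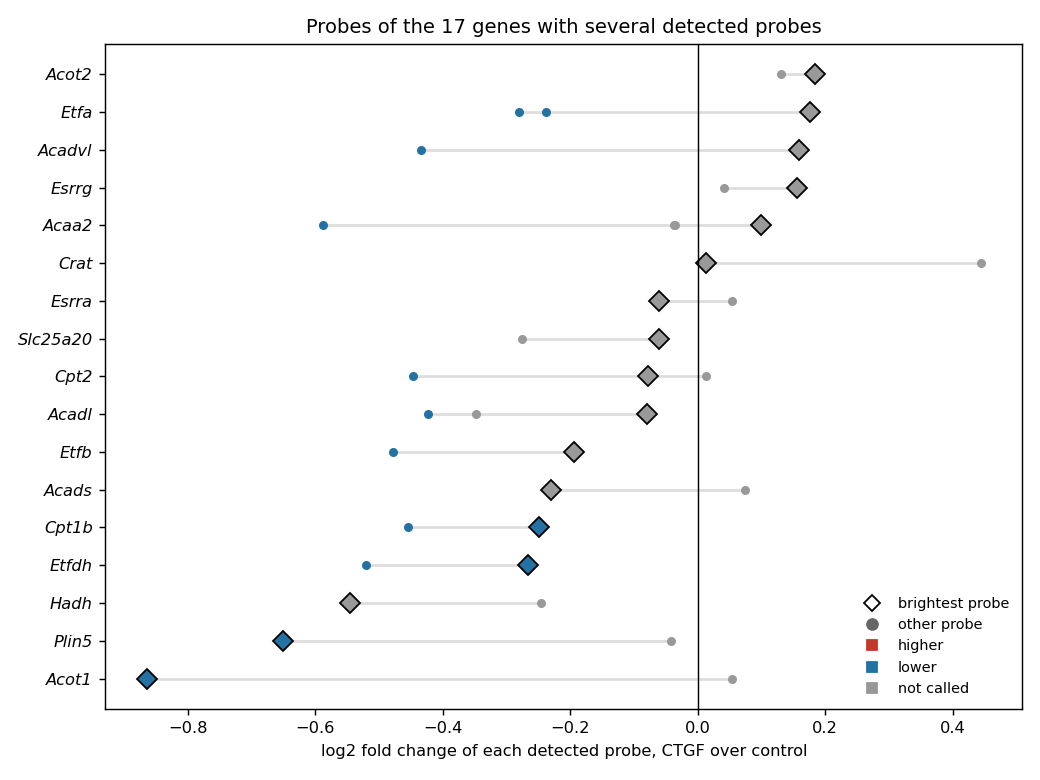
Log2 fold change of CTGF over control (x axis) for every detected probe of the 17 genes with several such probes, with diamonds for the brightest probe of a gene, circles for its other probes, blue for lower calls and grey for probes not called. Other probes of Etfa, Acadvl, Acaa2, Cpt2, Acadl and Etfb were called lower while the brightest was not, and no probe in the plot was called higher.

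Other genes of the pathway were read from lists chosen for their function. Of 16 measured PPAR-responsive genes outside the set, 6 fell and 2 rose, with a median log2 fold change of -0.12, where 21.6% of all genes fell and 25.0% rose. Angptl4, which encodes a lipoprotein lipase inhibitor, changed by -0.94 ± 0.10 (SE, limma adjusted p = 1.43e-06), and kept its call with median scaling (-0.53) and without normalization between arrays (-0.50). Fgf21, which encodes a metabolic hormone, rose by 0.71 ± 0.14 (adjusted p = 0.000865). Its signal was dim, at a mean log2 level of 5.84 with CTGF and 5.12 in controls, and detected on 6 CTGF and 5 control arrays. Plin2, a lipid droplet coat gene, rose by 0.71 ± 0.25 (adjusted p = 0.0296), a call lost under cyclic loess. With median scaling 1 gene of this list was lower and 7 higher, where 8.43% of all genes were lower and 47.4% higher. Of 11 measured genes of peroxisomal oxidation 3 fell and 1 rose, with a median of 0.00, and 4 rose and none fell with median scaling. Both splits stand beside the same shares of all genes, 21.6% lower and 25.0% higher, and 8.43% and 47.4% with median scaling. The rise was in Pex11a, a gene of peroxisome division, at 0.85 ± 0.19 (adjusted p = 0.00164). Pecr (-0.43 ± 0.16), detected on 2 CTGF and 4 control arrays, and Eci2 (-0.37 ± 0.11) were the largest falls there, and Eci2 was at 0.01 with median scaling.

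Of 20 measured partners and coregulators of PPAR, ERR and PGC-1, 8 rose and 3 fell, with a median of 0.26, where 25.0% of all genes rose and 21.6% fell. With median scaling 12 of them were higher and none lower, where 47.4% of all genes were higher and 8.43% lower. Pprc1, which encodes a further PGC-1 family coactivator, rose by 0.93 ± 0.08 (SE, limma adjusted p = 2.51e-07). Esrrb, the third ERR gene, rose by 0.78 ± 0.12 (adjusted p = 9.36e-05). Both rises were without overlap between groups and kept their calls with median scaling, cyclic loess and no normalization between arrays. Sirt1, which encodes a deacetylase of PGC-1 alpha, changed by -0.67 ± 0.10 (adjusted p = 8.49e-05), and lost its call with median scaling (-0.25). On the same arrays 4 of 11 myocyte markers and all 14 endothelial markers were lower, and all 14 stayed lower with median scaling.

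**Figure D4:**
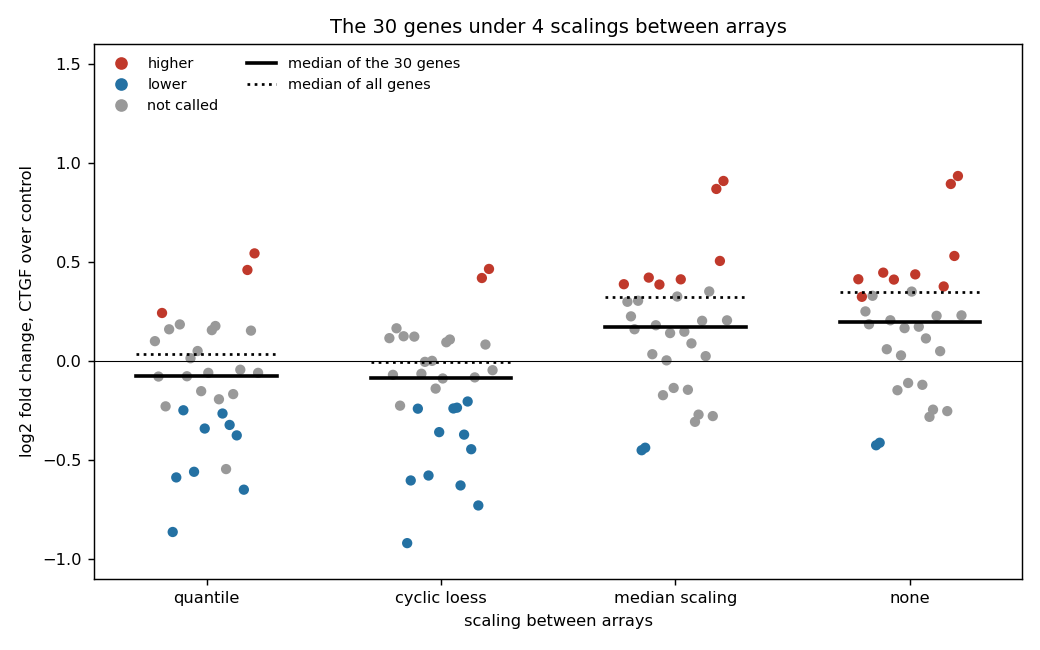
Log2 fold change of CTGF over control (y axis) for the 30 genes under 4 scalings between arrays (x axis), with blue for lower calls, red for higher calls, a solid bar for the median of the 30 genes and a dotted bar for the median of all genes. The set's median lies below that of all genes under each scaling shown, at -0.08 against 0.03 under quantile normalization and 0.17 against 0.32 with median scaling, while its position against 0 changes. The set is also brighter, at a median log2 level of 10.2 against 7.19 for all genes.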

How the data were processed

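Labelled cRNA from 12 cultures was hybridised to Illumina arrays. The authors deposited average bead intensity values without normalization, and a detection p-value in steps of 0.01 beside each, per the file headers. Their second deposited table of intensity values, nearly equal in distribution between arrays, served as an alternative. The scanner software and the slide of each array are not stated in the sources used, and a slide effect aligned with the treatment cannot be told apart from it. Precision is limited by the number of arrays.

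Sample titles gave the groups. Entrez identifiers named 34807 probes and accessions 11 through the RefSeq GRCm38.p6 gene table, and 67 kept their annotated symbol. Of 45281 probes 34885 had 1 symbol, 18 several and 10378 none. The neqc function of limma 3.58.1 (R 4.3.3) estimated background with the detection p-values and put values on a quantile-normalized log2 scale after an offset of 16, which shrinks changes of dim genes. A probe entered when its detection p was under 0.05 on 6 or more arrays (15038 probes), and the brightest such probe stood for its gene. The 8905 genes were tested with lmFit and eBayes (two-sided, Benjamini-Hochberg adjusted). Alternatives were other background, scaling, filter, probe and variance choices, stricter thresholds, the replicate number as a block, and 1 array left out at a time. The fit was tested on simulated data.

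The genes, lists and pairs were chosen by function with earlier results of these data known. All 35 genes are accounted for. Array values are given for called genes with an absolute change of at least 0.5, the 2 largest called per role, measured regulators, and further genes added for context after their values were seen (Hadh, Pdk4). From each pathway list at most 3 called genes of largest change are named. Same-numbered CTGF and control arrays did not deviate together (0 of 6 correlations over 0.1).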

Additional observations from a re-analysis of the deposited data

Results flagged for a closer look

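In 60 sets of 6 arrays (30 genes in 2 groups), 3 arrays stood apart from the others of their group, where chance gives about 1 in 20 sets. Ppargc1a in control replicate 6 was at 5.58 on the log2 scale, against 6.65 for the nearest other control. Acads in control replicate 2 was at 10.00, against 10.22 for the nearest. Cpt1b in control replicate 5 was at 11.75, against 11.64. The 3 arrays differed from gene to gene. Without control replicate 6 the change of Ppargc1a was -0.05 in place of 0.15, and without control replicate 2 the fall of Acads passed the test (-0.27, limma adjusted p = 0.0463).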

How the results depend on the processing

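The counts of 9 lower and 3 higher genes in the set were 2 and 9 without normalization between arrays and 2 and 7 with median scaling, where all genes gave 701 lower and 4404 higher, and 751 and 4218. The set's median log2 fold change was 0.19 and 0.17 there and -0.16 for the mean of a gene's probes. At an adjusted p under 0.01, 5 genes were lower, and Ppard, Ppargc1b and Acadm were still called higher. Leaving out each array in turn gave 9 to 10 lower and 3 to 4 higher, with medians of -0.12 to -0.07. In these settings 19.966% to 21.606% of all genes were lower and 22.65% to 25.345% higher. With the replicate number as a block 10 were lower and 3 higher, where 20.55% of all genes were lower and 23.605% higher. Same-numbered arrays share only a number, though, since 0 of 12 arrays correlated best with their own. Of the 12 called genes 4 (Acot1, Acot13, Ppard, Ppargc1b) kept their call in every setting, and 11, all but Acadm, in every setting other than median scaling and no normalization between arrays. Signs turned without normalization between arrays and with median scaling, in this order, for Cpt1b (0.059, 0.034), Slc25a20 (0.23, 0.20), Cpt2 (0.21, 0.18), Acadl (0.32, 0.30), Acads (0.18, 0.16), Echs1 (0.17, 0.14), Etfdh (0.11, 0.088), Pdk2 (0.049, 0.024), Pdk4 (0.38, 0.35), Mlycd (0.23, 0.20) and Esrra (0.35, 0.32). Of these Acadl and Pdk4 were called higher without normalization (limma adjusted p = 0.0446 and 0.041). Acadl was called lower for the mean of its probes (-0.28, adjusted p = 0.0106), and Mlycd was called lower under cyclic loess (-0.20, adjusted p = 0.0458). Crat (0.41, 0.39), Acaa2 (0.41, 0.39), Acot2 (0.45, 0.42), Ppargc1a (0.53, 0.50) and Esrrg (0.44, 0.41) were called higher in both settings. Crat turned under cyclic loess (-0.0048), and Acadvl (-0.14), Acaa2 (-0.14) and Etfa (-0.11) for the mean of probes. Leaving out arrays, Crat ranged from -0.026 to 0.083, Pdk4 from -0.10 to 0.0079 and Ppargc1a from -0.051 to 0.27. Hadh passed the test in 12 of 27 settings, Etfb in 8, Acads in 7 and Etfa in 6. The causes were not tested. Signals near background limit the dim genes, Hadh, Acot2 and Esrrg among them.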

Other observations

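Of 17 measured genes for other acyl-CoA species and ketone bodies in mitochondria, 5 fell, 2 rose and 10 did not pass the test, with a median log2 fold change of -0.16, where 21.6% of all genes were lower and 25.0% higher. Acadsb, the short/branched-chain dehydrogenase of isoleucine breakdown, changed by -0.55 ± 0.09 (SE, limma adjusted p = 0.000229). Hsd17b10, a mitochondrial hydroxyacyl dehydrogenase, changed by -0.50 ± 0.08 and Gcdh, the glutaryl-CoA dehydrogenase of lysine breakdown, by -0.43 ± 0.09, and in all 3 genes every CTGF array lay below every control. With median scaling they were not called, at -0.16, -0.32 and -0.05, and no gene of the list was lower and 5 were higher, where 47.4% of all genes were higher.

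In the pyruvate dehydrogenase complex, the gate through which glucose carbon enters the same acetyl-CoA pool, 2 of 8 measured genes rose and 1 fell, where 25.0% of all genes rose and 21.6% fell. With median scaling 3 were higher and none lower, where 47.4% of all genes were higher and 8.43% lower. Pdp2, which encodes a phosphatase that reactivates the complex, rose by 0.74 ± 0.18 (SE, limma adjusted p = 0.00358), with every CTGF array above every control. Pdp2 acts against the kinase encoded by Pdk2, which fell by 0.38 ± 0.11. Pdk2 was at 0.02 with median scaling and 0.05 without normalization between arrays. The other kinase genes, Pdk1 (-0.13), Pdk3 (0.22) and Pdk4 (-0.04), did not pass the test. Dlat, the transacetylase subunit gene, rose by 0.23 ± 0.07, and lost its call under cyclic loess. Dld, the dehydrogenase subunit gene that other complexes share, changed by -0.68 ± 0.17, and was not called with median scaling (-0.26).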
